A study of Mus musculus with 2 samples.

Results

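Lower-villus enterocytes are the absorptive cells of the small intestine that have left the crypt but carry few transcripts of the genes switched on at the villus tip. They were chosen here by transcripts alone. A cell counted as an enterocyte if Apoa1, Apoa4, Fabp1, Fabp2, Rbp2, Sis, Anpep, Slc5a1, Alpi and Lct together made up at least 3% of its UMIs (unique molecular identifiers, tags that mark single captured RNA molecules). It also had to lack Ptprc and hold at most 2 UMIs of Chga and Chgb, at most 1 of Mki67 and Top2a, and under 1.5% of 5 goblet cell genes (Muc2, Clca1, Fcgbp, Zg16 and Tff3). The enterocytes of each library were then ranked by the share of UMIs from the tip genes Ada, Nt5e, Slc28a2 and Krt20, and the lowest of 3 equal groups, the lower tertile, was taken. This gave 368 of 1105 enterocytes in the model library and 564 of 1693 in the control library, or 932 of 15242 kept cells in all. The rest of the enterocytes formed a middle tertile of 368 model and 564 control cells and an upper tertile of 369 model and 565 control cells.

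Enterocytes are made in the crypt and move up the villus over their short life, and the genes they express change on the way. Cells near the base are known for antimicrobial lectins of the Reg family and for the machinery of protein synthesis, those of the middle for nutrient carriers, and those at the tip for lipoprotein, purine metabolism and adhesion genes. The base of the villus borders the crypt, where stem cells and Paneth cells sit.

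The data were droplet-based 10x Genomics RNA sequencing of mouse small intestine, with 1 library labelled model and 1 labelled control. Nothing in the labels tells how the model was made, or gives strain, age, sex, number of animals or the stretch of intestine taken. The series title names simulated microgravity, radiation and a compound called CB001, but no library is labelled with the compound or with either exposure. Both tissues were treated alike: freed of mesentery and Peyer's patches, they were digested with EDTA and then with collagenase A and DNase I. With 1 library per group there was no spread between animals and no test could be made, so every difference is between 2 libraries, and the 95% intervals given cover counting error only.

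The lower tertile held 3727061 UMIs in the model and 4294273 in the control library. The median cell had 7294 UMIs and 2323 genes in the model, against 4944 UMIs and 1752 genes in the control library. Its mitochondrial share was 13.1% in the model and 17.5% in the control library, and its share of Rn18s-rs5, a ribosomal RNA repeat, was 5.34% and 7.03% in the same order. Cells with at least 10000 UMIs were 37.8% of the model and 21.3% of the control lower tertile, and gave 70.5% and 53.4% of its UMIs. The part of depth and of RNA make-up in the differences below was not tested; values within bands of depth stand beside the results they touch. The libraries shared 28 barcodes, none of them in the lower-tertile cells.

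The lowest tertile did not end at the same place in both libraries. It reached up to a tip-gene share of 0.0600% in the model and 0.112% in the control library. Of the model enterocytes 67.5% lay at or below the control limit, whereas 13.2% of the control enterocytes lay at or below the model limit. The score was 0 in 71 model and 50 control cells, and 220 model and 271 control enterocytes lay within 20% of their own limit. The 50 cells just inside and the 50 just outside the limit held 29603 and 26301 CPM (UMIs of a gene per 1000000 UMIs) of Reg3b in the model, against 17527 and 6079 CPM in the control library. Fabp1 stood at 19956 inside and 17804 CPM outside in the model, and at 13163 and 6702 CPM in the control library. Reg1 stood at 2070 inside and 3171 CPM outside in the model, and at 1117 and 874 CPM in the control library. Across the limit Reg3b and Fabp1 thus stepped down further in the control library, while Reg1 was higher outside the limit in the model.

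The label was checked against Fabp1, a fatty acid carrier, Rbp2, which carries vitamin A, Sis, which splits sucrose and isomaltose, and Reg1, a secreted lectin. Only Reg1 is outside the enterocyte rule. Reg1 stood at 2570, 2344 and 570 CPM in the lower, middle and upper tertile of the model, and at 1667, 815 and 40.0 CPM in those of the control library. Fabp1 stood at 18762, 19039 and 8180 CPM in the model tertiles and at 11889, 5572 and 834 CPM in the control tertiles. Sis gave 2715, 2866 and 1350 CPM in the model and 2799, 1600 and 313 CPM in the control library, and Rbp2 11682, 12318 and 6649 CPM against 8554, 5096 and 2691 CPM. All 4 markers were higher in the lower than in the upper tertile of both libraries, but Fabp1, Rbp2 and Sis helped to choose the cells, so only Reg1 bears on the name. The lower and middle tertiles of the model were nearly alike, with Fabp1, Rbp2 and Sis highest in the middle one, while the control values stepped down from tertile to tertile.

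**Figure D1:**
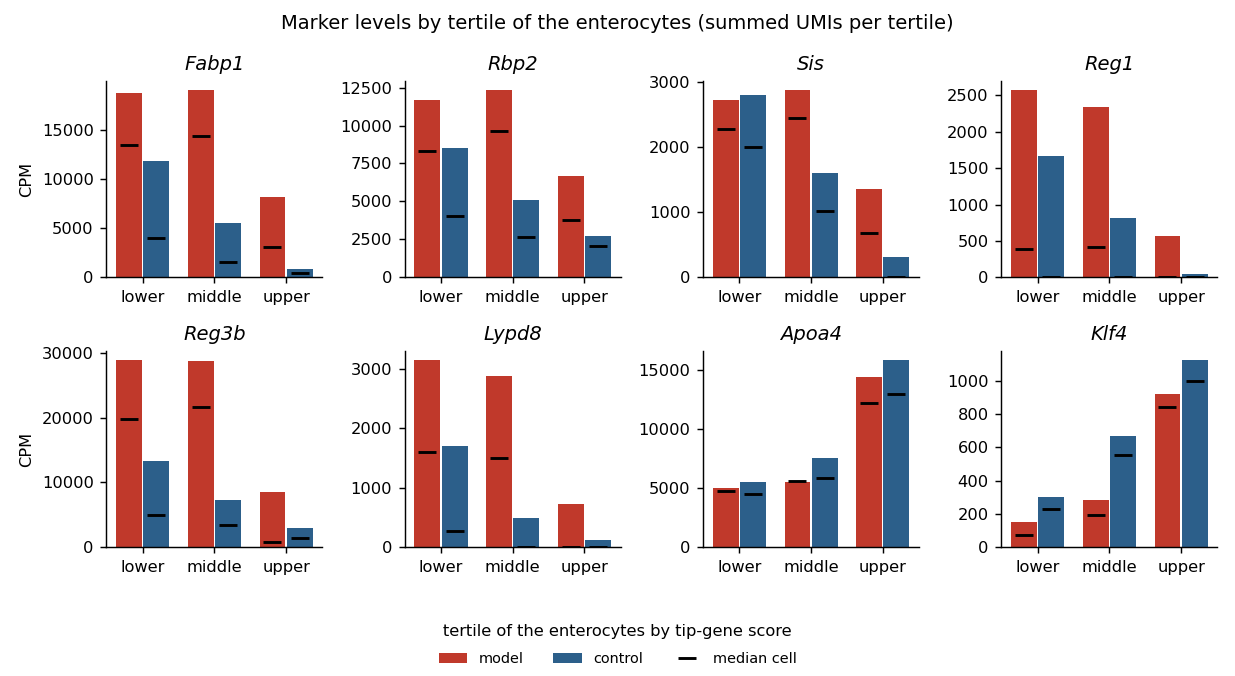
Level in CPM (vertical axes, linear, from 0) of 8 genes in the lower, middle and upper tertile of the enterocytes, with model in red left of control in blue; bars give summed UMIs per tertile and black dashes the median cell. Fabp1, Rbp2, Sis, Reg1, Reg3b and Lypd8 were highest in the lower or middle tertile, whereas Apoa4 and Klf4 were highest in the upper tertile of both libraries, and for Reg1 the median control cell of the lower tertile lay at 0.

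Markers of other cell types were counted in the lower tertile. The 9 T cell markers summed to 79.4 CPM in the model and 95.9 CPM in the control library, the 7 crypt stem and transit-amplifying markers to 77.5 and 44.5 CPM, the 7 Paneth markers to 31.1 and 263 CPM, and the 6 goblet markers to 178 and 248 CPM. None of the T cell, goblet or crypt markers was at 0 in either library, while 1 Paneth marker was at 0 in the model. The 6 plasma cell markers, mostly immunoglobulin chains, summed to 1231 CPM in the model and 2359 CPM in the control library, with 1 marker at 0 in each, and only 0.543% of the model and 0.355% of the control cells held no such UMI. Enteroendocrine markers summed to 89.6 and 58.4 CPM, fibroblast markers to 18.5 and 9.31 CPM and macrophage markers to 6.98 and 9.31 CPM. B cell, dendritic, tuft, endothelial, smooth muscle and red blood cell markers stayed at or below 2.95 CPM in the model and 6.29 CPM in the control library. The cell rule itself limited Muc2, Tff3, Mki67, Top2a, Chga and Chgb, so the goblet, crypt and enteroendocrine sums were partly set in advance. Cells with Ptprc were also left out, which bears on the immune cell sums. The part of these cells in the results below was not tested. Free RNA from broken cells reaches every droplet, so the T cell level is given beside several genes that other cell types also make. In CPM this level is pooled over the T cells of both libraries.

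The first comparison asked what else the lower tertile holds besides few tip-gene UMIs. Because the rule ranked these cells by tip genes, it is a description. Of 8788 genes measured in both libraries, 1852 (21.1%) were at least 1.5 times higher in the lower than in the upper tertile of both libraries and 684 (7.78%) at least 1.5 times lower. The median gene stood 0.21 (log2) higher in the lower tertile of the model and 0.60 higher in that of the control library. With ratios divided by that median, a choice made after seeing the data, 1060 genes stood higher and 1200 lower, so which side held more genes turned with the scale. Among the 10 genes that stood highest in the lower tertile by their smaller difference, 2 were secreted lectins and 2 belonged to glutathione chemistry.

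Reg1 was 4.51-fold higher in the lower than in the upper tertile of the model (95% interval 4.25 to 4.78) and 41.6-fold higher in that of the control library (33.9 to 51.6). Reg3b, a lectin that binds bacterial cell walls, was 3.38-fold higher in the model (3.33 to 3.43) and 4.45-fold in the control library (4.34 to 4.56). Lypd8, which coats flagellated bacteria, was 4.34-fold and 15.1-fold higher. These secreted defence products thus set the lower apart from the upper tertile in both libraries. In the model the middle tertile was close to the lower one, with 28855 CPM of Reg3b in the lower and 28697 in the middle and 3142 and 2873 CPM of Lypd8. In the control library the same pairs were 13359 and 7236 CPM, and 1692 and 492 CPM. Pycard, the adaptor of inflammasomes, was 6.18-fold higher in the model and 9.94-fold higher in the control library. Gsta1, a glutathione transferase, was 4.16-fold and 55.7-fold higher, and Gpx1, a glutathione peroxidase, 5.12-fold and 9.05-fold. Car4, a carbonic anhydrase of the surface, Ms4a18, a membrane protein, Gmds, which makes GDP-fucose, and Pccb, a subunit of propionyl-CoA carboxylase, completed the 10, with 4.23-fold to 5.08-fold differences in the model and 5.39-fold to 13.5-fold in the control library.

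Another 10 genes stood lowest in the lower tertile by the same measure. Clca4a, of a family that regulates chloride channels, had 10.7 CPM in the lower and 2112 CPM in the upper tertile of the model, and 48.7 and 5203 CPM in those of the control library. Ly6m and Pmp22 were 276-fold and 202-fold lower in the lower tertile of the model and 160-fold and 64.0-fold lower in that of the control library. Cldn4, a claudin of tight junctions, was 16.7-fold and 18.8-fold lower, and Lamb3, a laminin chain, 25.9-fold and 29.2-fold lower. Gas2l3 was 31.1-fold and 17.7-fold lower and Slc23a4, a nucleobase carrier in rodents, 60.6-fold and 94.2-fold. Gprc5a was 97.95-fold lower in the model and 91.7-fold in the control library, Bmp8a 37.5-fold and 64.3-fold, and Tmem43 20.5-fold and 28.2-fold. None of these 10 was used in the ranking. They were picked as the most different between tertiles that the ranking cut, so they are no independent evidence of position.

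**Figure D2:**
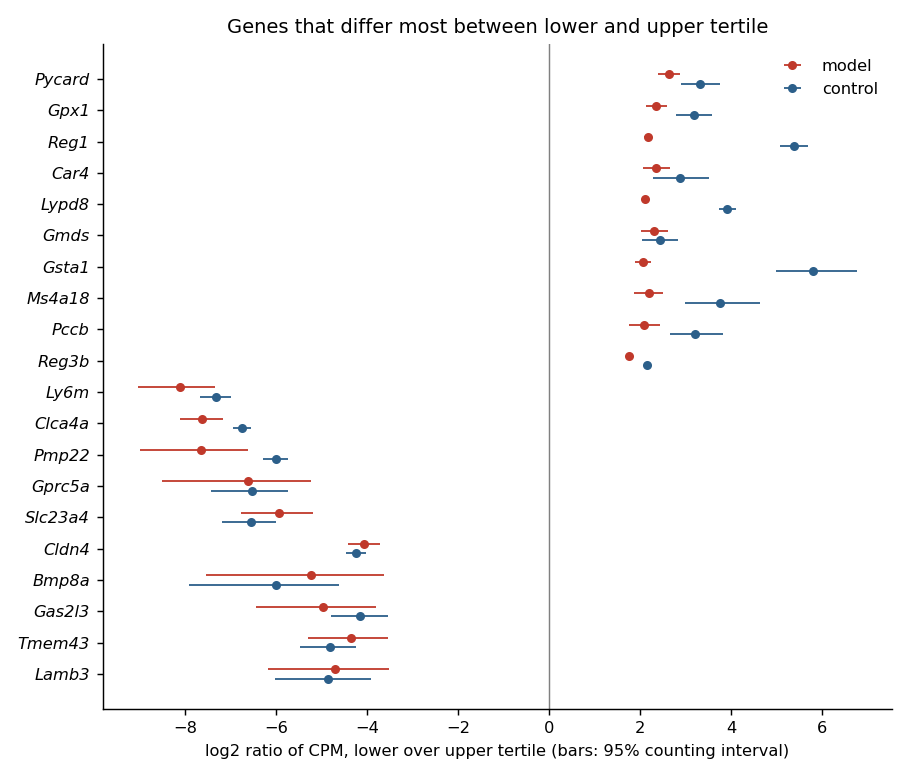
Log2 ratio of CPM, lower over upper tertile (horizontal axis), for the 10 genes that stood highest and the 10 that stood lowest in the lower tertile; model in red above control in blue, bars giving the 95% counting interval. The 10 upper genes lie right of 0 and the 10 lower genes left of 0 in both libraries, with Reg1 and Gsta1 further from 0 in the control library.

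Gene lists sorted the same contrast by function. Their counts are to be read beside the shares over all genes, 21.1% higher and 7.78% lower in the lower tertile. They used ratios that were not divided by the median gene. In the lower-villus list, 11 of 12 genes stood higher in the lower tertile of both libraries. The exception was Pigr, which carries IgA across the cell and was 1.29-fold higher in the model and 2.68-fold in the control library. In the villus-tip list without the ranking genes, 10 of 14 stood lower and 1 higher. All 24 cytosolic ribosomal proteins measured stood higher, as did 12 of 14 translation factors, 21 of 23 nuclear genes of the respiratory chain, 13 of 22 glutathione and NRF2 genes, with 1 lower, 5 of 7 aldo-keto reductases and 10 of 17 genes of the unfolded protein response. By contrast, 8 of 15 junction genes stood lower in the lower tertile, and none of 12 brush-border peptidases or 13 mitochondrially encoded genes passed in both libraries.

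The lower tertile was not uniform. Cells thinned to 1000 UMIs each, 338 in the model and 536 in the control library, gave a variance of Reg3b UMIs 17.0 times the mean in the model and 16.7 times in the control library. Fabp1 had a variance of 7.46 and 10.2 times the mean, Reg1 of 6.40 and 8.73 times and Reg3g of 4.70 and 5.51 times. A wide spread was not particular to lower-villus genes. Rn18s-rs5 had 30.1 and 34.5 times, the immunoglobulin chain Igkc 16.8 and 54.3 times and the mitochondrial ribosomal RNA mt-Rnr2 15.7 and 12.4 times. Counting alone gives a value near 1. Reg1 was seen in 45.3% of the thinned model cells (exact 95% interval 39.9 to 50.7) and 23.1% of the thinned control cells (19.6 to 26.9), against 3.29% and 2.59% of T cells, and without thinning in 66.0% of model and 39.7% of control lower-tertile cells. The quartiles of Reg3b over cells were 8084 and 31935 CPM in the model and 1642 and 14134 CPM in the control library. The wide range was shared, but the median cell stood at 19797 CPM in the model and 4963 CPM in the control library.

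The main comparison asked how lower-villus enterocytes of the model differed from those of the control library. Of 9771 genes with at least 20 UMIs, 844 (8.64%) were called higher and 662 (6.78%) lower, that is at least 1.5-fold apart with an interval excluding 1. The median gene was 0.02 (log2) higher in the model. With mitochondrially encoded genes left out of the CPM, 683 genes were called higher and 811 lower. Which side held more genes thus turned with the scale here too. Cyp1a1, Car4, Reg3b and genes of glutathione and sulfate chemistry led the higher side. Genes of the distal brush border, Nos2, which makes nitric oxide, and the metal-binding Mt2 led the lower side. The genes named were those whose interval lay farthest from 1, among genes with a level in these cells of at least 0.2 of their highest level in any compared class.

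Cyp1a1, an oxidase of aromatic compounds that the aryl hydrocarbon receptor switches on, had 462 UMIs in the model and 133 in the control library. That is 124 against 31.0 CPM, or 4.0-fold higher in the model (3.29 to 4.89). Among cells with at least 10000 UMIs it was 3.38-fold higher (2.67 to 4.31), and with cells thinned to 1000 UMIs it was seen in 10.9% of model (7.83 to 14.8) and 1.87% of control cells (0.898 to 3.40), against 0.256% and 0.228% of T cells. The difference was not limited to the lower tertile, since the ratio was 3.67 in the middle and 18.4 in the upper tertile. Ugt1a6a, another target of the receptor, had 35 and 17 UMIs and was 2.37-fold higher (1.29 to 4.52). Tiparp, which feeds back on the receptor, stood at 68.4 and 80.8 CPM, a ratio of 0.847.

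The Cyp1a1 promoter is shown because that gene led the higher side; capitals mark GCGTG, the core that the aryl hydrocarbon receptor is known to bind, searched on both strands. The window runs from 250 bases before to 50 after the start, chr9:57697363-57697662 on the + strand of GRCm38.p6 (RefSeq), and holds 1 match.
Cyp1a1: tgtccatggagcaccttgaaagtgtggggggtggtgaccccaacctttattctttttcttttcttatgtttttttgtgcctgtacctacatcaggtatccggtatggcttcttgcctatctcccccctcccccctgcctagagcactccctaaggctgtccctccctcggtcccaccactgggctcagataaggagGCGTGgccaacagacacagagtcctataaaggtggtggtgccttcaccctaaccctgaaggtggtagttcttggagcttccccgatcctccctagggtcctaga
Such a match occurs in 32.4% of the 32851 promoter windows, so its presence here is a description.

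Car4 had 241 CPM in the model and 78.7 CPM in the control library, 3.06-fold higher (2.70 to 3.48). Ms4a18 had 192 and 81.3 CPM and was 2.36-fold higher (2.07 to 2.69). Both also mark the lower tertile over the upper tertile. Mgst1, a membrane glutathione transferase, stood at 498 against 214 CPM, 2.33-fold higher (2.15 to 2.52), and Papss2, which makes the sulfate donor of sulfotransferases, at 925 against 440 CPM, 2.10-fold higher (1.99 to 2.22). Akr1c19, an aldo-keto reductase, was 2.28-fold higher (1.88 to 2.78) with 315 and 159 UMIs. In cells with at least 10000 UMIs these 5 were between 1.54-fold and 2.32-fold higher. None of the 5 differences was limited to the lower tertile. In the middle tertile their ratios were larger, from 4.10 for Papss2 to 7.88 for Car4. In the upper tertile they ran from 3.43 for Papss2 to 27.8 for Akr1c19, the latter on 3 control UMIs. Reads of Akr1c19 and other members of large, similar families may be split between copies, so their counts are less certain.

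Reg3b gave 107543 UMIs in the model and 57365 in the control library, or 28855 against 13359 CPM, 2.16-fold higher (2.14 to 2.18). It was higher by 1.79-fold among cells of at least 3000 but under 10000 UMIs and by 2.00-fold among those of at least 10000. The T cell level of 1578 CPM lay far below both libraries. Reg3b was also higher in the other tertiles of the model, 3.97-fold in the middle and 2.84-fold in the upper one. Dbp, a clock output factor, had 56 and 19 UMIs and was 3.40-fold higher (1.99 to 6.05). Timm17a, a subunit of the mitochondrial import channel, was 2.38-fold higher, Ppme1, a phosphatase methylesterase, 2.45-fold and Pycard 2.02-fold. In the middle tertile the ratios of Dbp, Timm17a, Ppme1 and Pycard were larger, from 2.92 for Timm17a to 9.39 for Dbp. In the upper tertile they ran from 3.26 for Pycard to 18.3 for Dbp, the latter on 4 control UMIs. T cells held 58.0 CPM of Timm17a, 34.3 of Ppme1 and 337 of Pycard, above the control level of each. Ssna1 completed the 12 with 91 and 38 UMIs, a ratio of 2.76, and stood at 24.4 and 8.85 CPM against 64.4 CPM in T cells. After thinning to 1000 UMIs, however, it was seen in only 5 model and 7 control cells, with a log2 ratio of -0.013. Its ratio was 3.13 in the middle and 0.893 in the upper tertile.

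Plb1, a brush-border phospholipase, had no UMI among the 368 model cells and 266 UMIs in the control library, where it stood at 61.9 CPM. Set against 3 UMIs, the limit used for a count of 0, it was at least 77.0-fold lower in the model, and the exact interval reached down to 62.2-fold. Nos2 had 4 UMIs in the model and 213 in the control library, 46.2-fold lower (17.8 to 171). Slc5a8, a carrier of short-chain fatty acids, had 10 and 270 UMIs and was 23.4-fold lower (12.5 to 49.4), Fam151a had 8 and 169 UMIs and was 18.3-fold lower (9.10 to 43.2), and Tmigd1, an adhesion protein of the brush border, had 11 and 181 UMIs and was 14.3-fold lower (7.79 to 29.1). These genes were thus almost missing in the model and modest in the control library. In the model all 5 stood below their T cell levels of 2.78 to 6.71 CPM. Those levels were pooled over both libraries, so they do not give the free RNA of the model library alone. They were also lower in the middle and upper tertiles of the model.

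Mt2, a metallothionein that binds zinc and copper, stood at 44.0 CPM in the model and 223 CPM in the control library, 5.07-fold lower (4.29 to 6.02), against 64.6 CPM in T cells. Its relative Mt1 had 392.3 and 839 CPM, a ratio of 0.467 (0.439 to 0.497). Among cells with at least 10000 UMIs the ratios were 0.159 for Mt2 and 0.415 for Mt1. In the upper tertile the gap was smaller, with ratios of 0.921 (0.748 to 1.13) and 0.996. Slc39a4, which takes zinc in from the gut, was at 94.4 and 139 CPM, Slc30a1, which exports it, at 69.5 and 90.6 CPM and Mtf1, the zinc-sensing factor, at 44.5 and 48.4 CPM, and none of these was called. In all, 2 of the 7 genes of the metallothionein and zinc list were called lower and none higher.

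The promoters of Mt1 and Mt2 are shown because both genes stood lower together; capitals mark the metal response core, TGCACNC or TGCGCNC, on either strand. The windows of the same length are chr8:94178839-94179138 for Mt1, with 3 matches, and chr8:94172368-94172667 for Mt2, with 4 matches, both on the + strand of GRCm38.p6 (RefSeq).
Mt1: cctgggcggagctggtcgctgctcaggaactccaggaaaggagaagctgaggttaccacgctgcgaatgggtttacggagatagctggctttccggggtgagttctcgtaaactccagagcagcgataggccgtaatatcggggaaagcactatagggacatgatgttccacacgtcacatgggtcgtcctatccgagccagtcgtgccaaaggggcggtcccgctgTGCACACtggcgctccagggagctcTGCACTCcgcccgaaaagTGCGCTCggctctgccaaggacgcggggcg
Mt2: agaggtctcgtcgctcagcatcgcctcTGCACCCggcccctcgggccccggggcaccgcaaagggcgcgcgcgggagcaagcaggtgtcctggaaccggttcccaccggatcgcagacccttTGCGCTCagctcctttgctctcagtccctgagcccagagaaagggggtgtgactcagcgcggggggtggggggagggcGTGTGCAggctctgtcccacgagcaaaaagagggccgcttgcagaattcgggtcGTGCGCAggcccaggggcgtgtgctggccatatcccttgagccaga
At least 1 such match is found in 25.7% of all promoter windows.

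Cubn, the receptor that takes up intrinsic factor with vitamin B12, had 24.1 CPM in the model and 109 CPM in the control library, 4.53-fold lower (3.61 to 5.74). Mgat4c, a glycosyltransferase, was 6.61-fold lower and Sprr2a3, a small proline-rich protein, 4.19-fold lower, from 30 and 145 UMIs. Across the alternatives tried, the log2 ratio of Sprr2a3 came as close to level as -0.013. Slc52a3, a riboflavin carrier, was 3.80-fold lower, Enpp7, which splits sphingomyelin, 3.07-fold and Naip5, a sensor of bacterial flagellin, 2.73-fold. Among cells of at least 10000 UMIs the 12 genes that led the lower side were all lower in the model, with 0 to 111 UMIs there against 27 to 610 in the control library. Those cells gave 70.5% of the model and 53.4% of the control UMIs from which the 12 were picked, so this is no independent check.

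**Figure D3:**
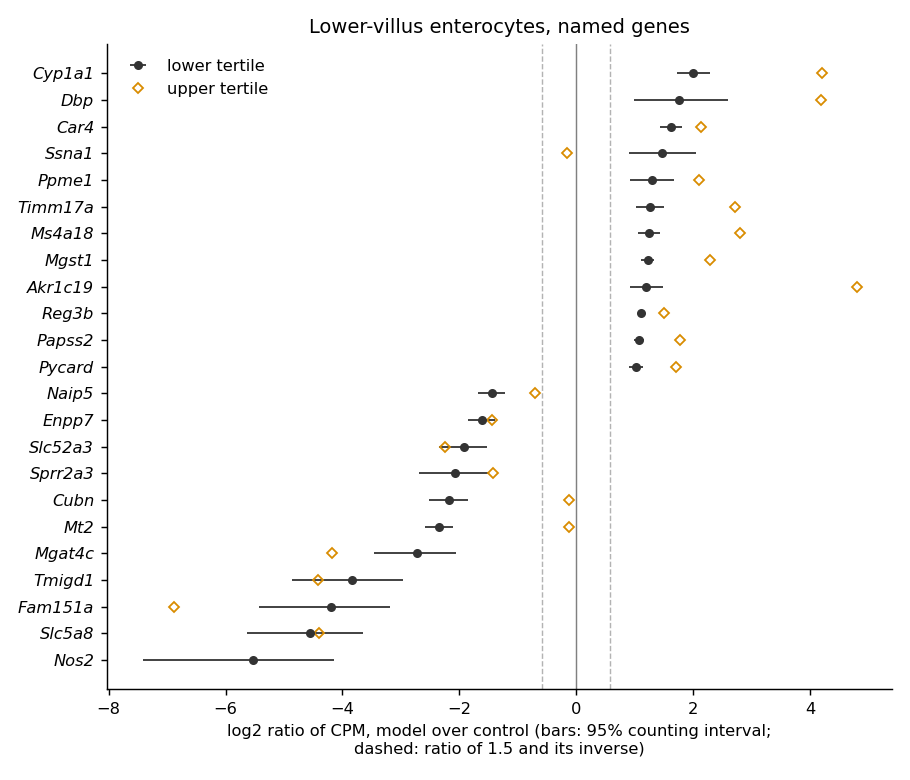
Log2 ratio of CPM, model over control (horizontal axis), for 23 of the 24 named genes; filled points with bars give the lower tertile and its 95% counting interval, open diamonds the upper tertile, and dashed lines a 1.5-fold difference. Plb1, at 0 in the model, is not drawn, and no diamond is drawn for Nos2, at 0 in the model's upper tertile. Mt2 and Cubn lie far left of 0 in the lower tertile and close to 0 in the upper tertile.

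The lower-villus list was described next, since its genes define this stretch of the villus. Of its 12 genes 6 were called higher in the model and none lower, with a median log2 ratio of 0.54 against 0.02 for all genes. Over all genes measured 8.64% were called higher and 6.78% lower. The counts of list members called between the libraries are to be read beside these shares. The 6 were Reg3b, Il18, Lypd8, Gsta1, Nlrp6 and Reg1. Il18, a cytokine that the epithelium makes, stood at 464 CPM in the model and 235 CPM in the control library, 1.97-fold higher (1.82 to 2.13). Nlrp6, a sensor of microbial products, stood at 541 and 347 CPM, 1.56-fold higher (1.46 to 1.67). Lypd8 gave 3142 and 1692 CPM and Gsta1 534 and 288 CPM, each 1.86-fold higher. The other 6 ran from a ratio of 0.833 for Pigr, through 0.934 for Gstm3, 1.03 for Gstm1, 1.21 for Reg3g and 1.32 for Reg3a to 1.38 for Ccl25, a chemokine that draws T cells to the gut.

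The ratios of these 6 genes differed between bands of depth. Reg1 stood at 2570 and 1667 CPM, 1.54-fold higher in the model (1.495 to 1.59). Among cells of at least 3000 but under 10000 UMIs it was 3.69-fold higher, and among cells of at least 10000 UMIs 1.10-fold (1.07 to 1.14). Among the deep cells Gsta1 and Nlrp6 were 1.33-fold higher each, Lypd8 1.45-fold and Il18 1.53-fold, whereas Reg3b kept 2.00-fold. The deep cells of both libraries were thus closer to each other in Reg1 than the shallow ones, and Reg3b was at least 1.79-fold higher in every band. At a mitochondrial limit of 10%, which left 116 model and 55 control cells, 1 of the 12 genes was called higher and the median was 0.24.

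The promoters of Reg3b and Reg1 are shown because both secreted lectins mark the lower tertile while their model over control ratios differed in how far they varied between the bands of depth. Capitals mark TTCNNNGAA, the core bound by STAT factors. The windows are chr6:78370635-78370934 for Reg3b, with 1 match, and chr6:78425733-78426032 for Reg1, in which these letters are not found, both on the + strand of GRCm38.p6 (RefSeq).
Reg3b: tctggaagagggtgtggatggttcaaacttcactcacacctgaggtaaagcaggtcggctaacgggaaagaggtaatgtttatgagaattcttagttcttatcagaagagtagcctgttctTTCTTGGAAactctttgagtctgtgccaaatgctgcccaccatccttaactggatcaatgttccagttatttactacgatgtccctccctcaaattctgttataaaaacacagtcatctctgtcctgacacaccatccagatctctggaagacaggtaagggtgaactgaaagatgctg
Reg1: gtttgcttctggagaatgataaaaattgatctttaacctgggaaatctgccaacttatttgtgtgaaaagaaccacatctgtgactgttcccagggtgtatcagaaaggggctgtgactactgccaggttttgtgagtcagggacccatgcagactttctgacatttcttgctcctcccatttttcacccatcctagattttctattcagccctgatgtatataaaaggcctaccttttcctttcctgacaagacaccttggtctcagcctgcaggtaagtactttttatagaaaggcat
The motif is found in 8.30% of promoter windows.

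The gap between model and control libraries varied between tertiles, which did not cover the same tip-gene shares in both libraries. The model's middle tertile ran from 0.0602% to 0.109%, within the control lower tertile, which reached 0.112%. The median log2 ratio of all genes was 0.02 in the lower, 0.11 in the middle and 0.38 in the upper tertile. Reg1 was 1.54-fold higher in the lower, 2.88-fold in the middle and 14.2-fold in the upper tertile of the model. Il18 was 1.97-fold, 6.86-fold and 27.8-fold higher, and Gsta1 1.86-fold, 6.05-fold and 24.8-fold. The upper values rested on 93, 13 and 12 control UMIs of Reg1, Il18 and Gsta1. Gstm3, a glutathione transferase, had ratios of 0.934 in the lower, 2.05 in the middle and 12.9 in the upper tertile. Other genes were farthest apart in the lower tertile, such as Mt2, with ratios of 0.197, 0.417 and 0.921. Reg3g differed from the rest of the list, with ratios of 1.21, 1.61 and 0.635. Of 8732 genes, 1328 (15.2%) had a model over control ratio at least 2 times lower in the lower than in the upper tertile, and 133 (1.52%) at least 2 times higher, with intervals excluding 1. The median of this ratio of ratios was -0.37 (log2), and with ratios divided by that median, a choice made after seeing the data, 626 genes were lower and 353 higher.

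**Figure D4:**
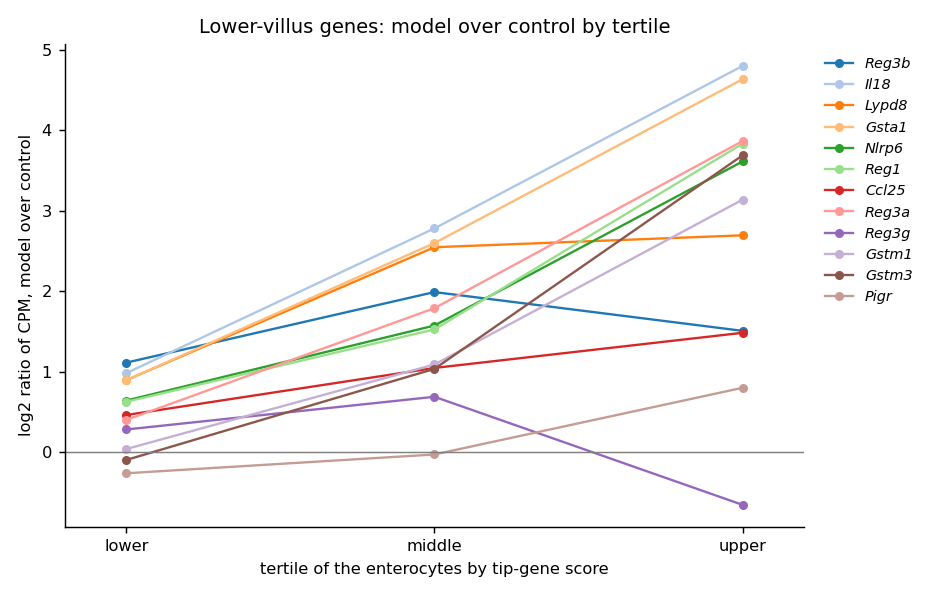
Log2 ratio of CPM, model over control (vertical axis), of the 12 lower-villus genes in the lower, middle and upper tertile of the enterocytes, 1 line per gene. Most lines climb toward the upper tertile, where Il18 and Gsta1 lie highest, while Reg3g lies below 0 there.

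The genes that led this contrast were named by the same rule. Fam13a was 1.09-fold higher in the model's lower tertile and 31.4-fold in its upper tertile, 27.1-fold apart (13.5 to 54.5). Ces1f, a carboxylesterase, was 1.67-fold and 24.7-fold higher, and Reg3a 1.32-fold and 14.6-fold. On the other side Duox2, an oxidase that makes hydrogen peroxide at the cell surface, had 11 UMIs in the model and 115 in the control lower tertile, a ratio of 0.110, and 5 against 847 UMIs in the upper tertile, a ratio of 0.00608, while T cells held 10.5 CPM. Dnpep, a peptidase, stood at a ratio of 1.13 in the lower and 0.239 in the upper tertile, and Tgm2, which cross-links proteins, at 1.39 and 0.365. Itgb6, an integrin chain, gave 1.19 and 0.256 and Slc17a5, a lysosomal carrier, 0.908 and 0.206, while Arhgap35 rested on 13 and 6 UMIs in the lower tertile. The tertiles were cut at different tip-gene shares in each library: ranked once over both libraries, 385 genes instead of 1328 were lower in the lower tertile by this measure, and Reg1 gave a log2 value of -1.04 instead of -3.20.

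All 24 cytosolic ribosomal proteins measured were called higher and none lower, with a median log2 ratio of 0.89. Rpl3 had 338 CPM in the model and 143 CPM in the control library, 2.37-fold higher (2.15 to 2.62), Rps2 909 and 388 CPM, 2.34-fold (2.21 to 2.48), and Rplp1, at the other end, 1222 and 769 CPM, 1.59-fold (1.52 to 1.66). In 7 of the 24 genes the level reached 0.2 of the highest in any class, and T cells held 1231 CPM of Rpl3. Of 15 translation factors 9 were called higher and none lower, led by Eef1g at 200 and 99.0 CPM and Eef1b2 at 398 and 212 CPM, while Eef2 stood at a ratio of 1.11. Among cells held to a mitochondrial limit of 10% the ribosomal median was 0.31 and 2 of the 24 were called.

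Of 13 mitochondrially encoded genes 9 were called lower in the model and none higher, with a median log2 ratio of -0.69. Summed, the 13 genes stood at 53836 CPM in the model and 76230 CPM in the control library. In the upper tertile the direction was the other way, with 79681 CPM in the model and 56669 CPM in the control library. Mt-Co3, a subunit of cytochrome oxidase, stood at 545 CPM in the model and 1023 CPM in the control library, a ratio of 0.533, and mt-Cytb at 15328 and 19761 CPM, a ratio of 0.776. Of 23 nuclear genes for the same chain 3 were called higher (Cox5a, Ndufb8 and Ndufb9) and none lower, with a median log2 ratio of 0.24. Cox5a gave 1541 and 920 CPM, 1.67-fold higher (1.61 to 1.74). The mitochondrial share of a cell was also a limit of the cell rule and differed between the libraries as given above, and its part in this result was not tested.

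In the glutathione and NRF2 list 6 of 23 genes were called higher and none lower, with a median log2 ratio of 0.30: Gsta4 had 91.8 CPM in the model and 35.4 CPM in the control library, 2.59-fold higher (2.14 to 3.16), followed by Mgst1, Gsta1, Gpx1, Gstp1 and Prdx6. Gclm, which helps make glutathione, stood at 189 and 238 CPM and Srxn1, which repairs peroxiredoxins, at 118 and 146 CPM. Nqo1, a textbook NRF2 target, stood at 25.2 and 22.1 CPM. Of 8 aldo-keto reductases 3 were called higher, with a median of 0.71: Akr1c19, Akr1c12 at 97.7 and 49.1 CPM, and Akr1c13 at 152 and 78.9 CPM. In the aryl hydrocarbon receptor and P450 list 5 of 16 were called higher (Cyp1a1, Ugt1a6a, Cyp2c29, Cyp2j6 and Ugt2b5) and 2 lower. The lower pair was Cyp3a11, at 327 and 658 CPM, and Cyp3a25, at 231 and 415 CPM, both oxidases of steroids and drugs.

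In the fat oxidation and PPAR list 4 of 21 were called higher (Acaa2, Acadl, Acot1 and Acot2) and 1 lower, while 8.64% of all genes were called higher and 6.78% lower. Acaa2, the last enzyme of mitochondrial beta-oxidation, stood at 266 CPM in the model and 150 CPM in the control library, 1.77-fold higher (1.602 to 1.959), and Angptl4, which inhibits lipoprotein lipase, at 41.3 and 73.1 CPM, a ratio of 0.565 (0.463 to 0.687). None of 14 chylomicron genes was called in either direction, with Apob, the scaffold of the particle, at 1981 and 2725 CPM and Sar1b, which buds its vesicles, at 362 and 265 CPM. Of 11 genes of sugar digestion and fructose use 1 was called, the fructose carrier Slc2a5, at 120 and 70.3 CPM, 1.71-fold higher (1.48 to 1.99). That count is near the share over all genes. In the cholesterol synthesis list 4 of 18 were called lower and none higher, among them Sqle, which oxidises squalene, at 4.29 and 17.5 CPM, below its 43.1 CPM in T cells.

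Of 12 brush-border peptidases 3 were called lower and none higher: the meprin Mep1a at 65.7 CPM in the model and 104 CPM in the control library, Naaladl1 at 66.3 and 117 CPM and Xpnpep2 at 38.9 and 60.5 CPM. Mep1b, the partner of Mep1a, stood at 855 and 843 CPM. Among 12 carriers of the mid-villus list Slc2a5 was called higher and the peptide carrier Slc15a1 lower, at 437 and 679 CPM, a ratio of 0.643 (0.605 to 0.683). The mid-villus counts are near the shares over all genes, 8.64% higher and 6.78% lower. In the vitamin A list 2 of 6 were called higher, Rdh7, a retinol dehydrogenase, at 325 and 199 CPM and Lrat, which esterifies retinol, at 40.5 and 25.6 CPM.

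Of 10 genes of the distal intestine measured, 5 were called lower (Plb1, Slc34a2, Tmigd1, Cubn and Osr2) and none higher, with a median log2 ratio of -0.71 that takes Plb1 at 3 UMIs. Slc34a2, a phosphate carrier of the ileum in mice, had 23 UMIs in the model and 604 in the control library, a ratio of 0.0439 (0.0276 to 0.0665), and its 6.17 CPM in the model lay below the 13.4 CPM of T cells. Slc51a and Slc51b, which export bile acids, stood at 331 and 359 CPM and at 211 and 207 CPM. Among 9 genes of the proximal intestine 1 was called higher and 2 lower, and Gata4, a factor of the proximal gut, stood at 78.3 and 74.1 CPM. The labels do not give the stretch of intestine, so a difference in stretch and a difference within a stretch cannot be told apart. Cells with no UMI of Plb1, Tmigd1, Slc10a2, Fabp6 or Cubn were 316 of 368 in the model and 259 of 564 in the control library. Between these cells the log2 ratio was -1.82 for Fam151a, against -4.20 over the whole lower tertile, -3.25 against -4.55 for Slc5a8, -0.92 against -1.62 for Enpp7 and -3.95 against -5.53 for Nos2. Mt2 gave -2.32, close to its -2.34 over the whole. Among the named genes with a value there, 16 moved past and 5 stayed within their counting interval, and 391 genes were called higher and 431 lower. These cells were chosen by genes that themselves differed between the libraries.

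All 3 measured genes of the oxidase and nitric oxide list, Nos2, Duox2 and Duoxa2, were called lower. Duoxa2, the partner that matures Duox2, had 5 and 66 UMIs. The inflammasome list was split, with 3 of 7 called higher (Pycard, Il18 and Nlrp6) and 2 lower, Casp4, which binds bacterial lipopolysaccharide, at 17.4 and 34.0 CPM, and the sensor Nlrp9b, at 20.4 and 53.3 CPM, 0.382 of the control level (0.291 to 0.498). Casp1, which cleaves Il18, stood at 119 and 97.3 CPM. In the NF-kB list 4 of 11 were called lower and none higher, among them Relb at 32.2 and 52.4 CPM and Nfkb2 at 5.63 and 15.6 CPM. Tnfaip3, also lower at 11.3 and 27.5 CPM, stood at 547 CPM in T cells.

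Of 8 MHC class II genes 5 were called lower and none higher, but none reached 0.2 of its highest level elsewhere, and H2-Ab1 stood at 151 CPM in the model and 278 CPM in the control library, against 88.4 CPM in T cells. Of 12 class I genes H2-K1 was called lower, at 1840 and 3050 CPM, a ratio of 0.603 (0.586 to 0.621), and Psmb9, a subunit of the immunoproteasome, higher, at 132 and 86.4 CPM against 146 CPM in T cells. Among 18 interferon-stimulated genes 2 were called higher and 3 lower, with Irf7 at 44.8 and 74.1 CPM. In the p53 list 1 of 20 was called higher, the cell death gene Bax at 59.0 and 37.0 CPM against 150 CPM in T cells, and 5 lower, led among well-counted genes by the stress gene Sesn1 at 35.4 and 88.7 CPM. The shares over all genes were 8.64% higher and 6.78% lower. Cdkn1a, the cell cycle inhibitor that p53 is known to switch on, stood at 281 and 294 CPM.

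Clock genes split. Dbp, Tef at 16.9 CPM in the model and 9.78 CPM in the control library, and Per3 were called higher, 3 of 16, whereas Arntl, Npas2, Cry1 and Per2 were among those called lower. Npas2, which pairs with the product of Arntl, had 34 and 112 UMIs, a ratio of 0.3498 (0.231 to 0.517), and Arntl 75 and 163 UMIs, a ratio of 0.530 (0.398 to 0.701). Clock, the usual partner of the Arntl product, stood at 66.0 and 70.6 CPM. The activators Arntl and Npas2 were thus lower while the output factors Dbp and Tef were higher. The hour at which the tissue was taken is not in the labels.

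Of 14 tip genes outside the rule 5 were called lower in the model within the lower tertile (Clca4a, Clca4b, Enpp3, Klf4 and Npc1l1) and none higher, with a median log2 ratio of -0.42. Klf4, a factor of terminal differentiation, had 152 CPM in the model and 302 CPM in the control library, a ratio of 0.504 (0.456 to 0.556), and Npc1l1, which takes up cholesterol, 251 and 528 CPM. The tip-gene limit was also lower in the model, as given above, and its part was not tested. Of 18 enterocyte transcription factors 2 were called lower, Klf4 and Hnf4g, at 464 and 712 CPM, and none higher, while Hnf4a stood at 144 and 148 CPM and Cdx2 at 138 and 126 CPM. Of 16 junction genes 1 was called higher, Cldn3 at 648 and 409 CPM, and 3 lower, Cgn at 129 and 222 CPM, Ceacam1 at 331 and 544 CPM and Ceacam20 at 102 and 204 CPM.

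Of 8 crypt genes 3 were called higher and 2 lower, the pair being Rnf43 at 9.93 CPM in the model and 15.6 CPM in the control library and Axin2 at 8.05 and 25.6 CPM. The stem cell marker Olfm4, among the higher ones, stood at 59.6 and 29.1 CPM, below the 353 CPM of T cells, and turned lower in the model under 4 of the alternatives tried. Of 13 cell cycle genes 2 were called higher, and Pcna stood at 60.1 and 61.9 CPM. In the unfolded protein response 3 of 17 were called higher and 1 lower, and in the immediate early and heat shock list 1 of 17 in each direction. The heat shock counts are near the shares over all genes, 8.64% higher and 6.78% lower. Of 13 ion transport and guanylin genes Car4 was called higher, and Guca2a, at 81.6 and 129 CPM, and Car2, at 29.5 and 52.6 CPM against 362 CPM in T cells, lower. Of 6 iron genes Tfrc, the transferrin receptor, was called higher at 33.3 and 21.9 CPM, below the 61.3 CPM of T cells. None of 5 butyrophilin-like genes, which shape the gut's gamma delta T cells, was called, with Btnl1 at 185 and 222 CPM.

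**Figure D5:**
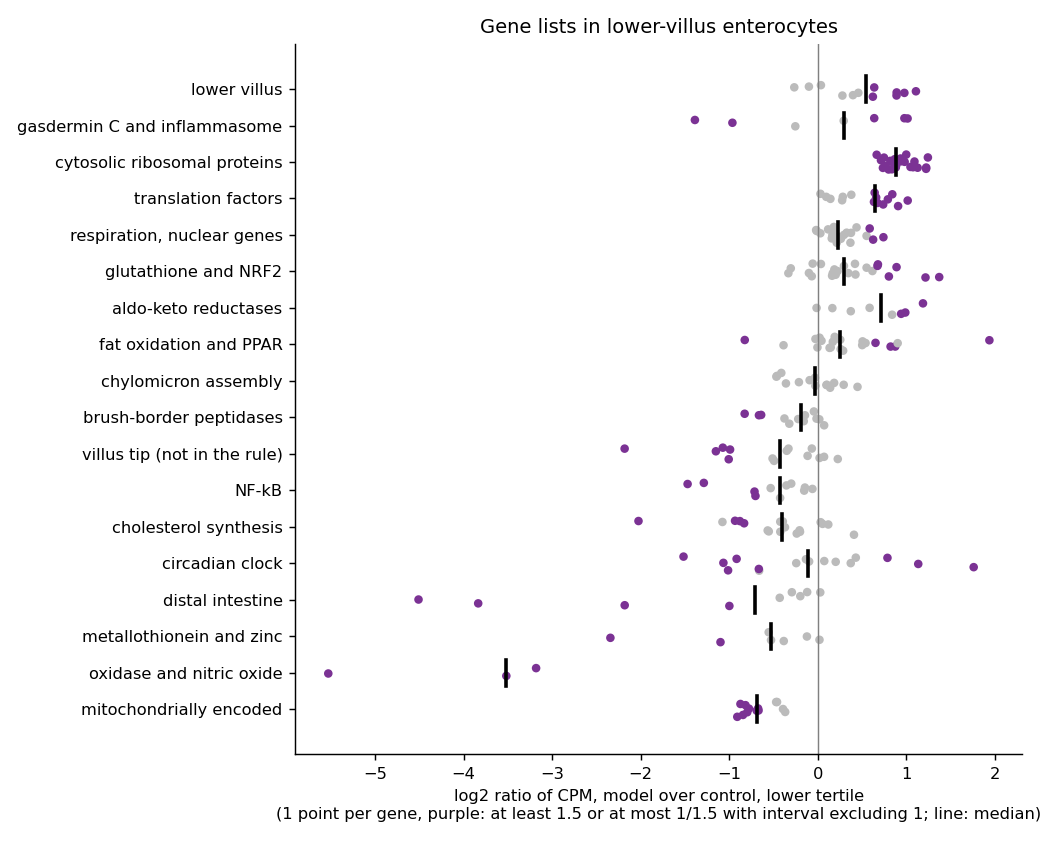
Log2 ratio of CPM, model over control, in the lower tertile (horizontal axis) for the members of 18 gene lists, 1 point per measured gene; purple points are at least 1.5-fold apart with an interval excluding 1, grey points are not, and black lines give the list medians. Plb1, at 0 in the model, is left out of the distal list. Ribosomal proteins lie right of 0, mitochondrially encoded genes left of 0, and the oxidase list farthest to the left.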

How the data were processed

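The files held the authors' deposited counts, raw UMI counts per gene and barcode, written by Cell Ranger 7.0.1 per the file headers. Another release, 4.0, and the build GRCm39 stand in the submitters' processing notes. Neither source states the annotation or whether intronic reads were counted. Barcodes under 500 UMIs or 200 genes, or over 25% mitochondrial UMIs, were dropped, which kept 7913 of 11468 barcodes (model) and 7329 of 10259 (control). No doublet caller was run. The enterocyte rule limits Ptprc, chromogranin, proliferation and goblet genes only, so doublets with other cells or of enterocytes can remain. UMIs were summed per library over the lower tertile and given as CPM. A gene was measured with at least 20 UMIs over both libraries and called at 1.5-fold or more with an exact binomial 95% interval (Clopper-Pearson) excluding 1. Lower over upper tertile had to pass in both libraries. The ratio of ratios used a log-normal counting interval, 2-fold, 50 UMIs over its sums and 10 per library. With 1 library per group no test over samples exists.

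The members and gene lists were chosen with earlier results of these data known. Named were the 12 genes per direction whose interval lay farthest from 1 between libraries, 10 between tertiles and 6 for the ratio of ratios, with 50 UMIs in the higher library and at least 0.2 of the highest level among the other enterocyte and 9 non-enterocyte classes, and up to 4 members of each of 36 lists. For tertiles and ratio of ratios this level was taken from the tertile with more CPM against the 9 non-enterocyte classes, a change from the plan, which barred genes high in the upper tertile. Other list members named as examples were chosen after their values were seen. Genes of near-identical families (Akr1c, Gsta, Reg3, Mt1 and Mt2, H2, ribosomal proteins, Clca4, Ly6, Sprr2a) may share reads. Of symbols given to several IDs, 148 in all, the ID with most UMIs kept the name. Thinning drew 1000 UMIs per cell and left out 30 model and 28 control cells. Python 3.11.15, numpy 2.4.6, scipy 1.17.1, pandas 2.3.3 and matplotlib 3.10.9 were used. The calls between libraries were run on simulated sums with counting error only. Those sums had no spread between cells or libraries, so they cannot show how the calls fare with such spread. Of 2-fold changes, 73.6% of decreases and 97.5% of increases were called, and of 4-fold changes 94.3% and 100%. Of unchanged genes 1.62% were called. Promoter sequences came from RefSeq, GRCm38.p6, and no coordinate of the files was used. Alternatives covered cell limits, ranking, scaling, thinning, gene minimum and fold.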

Additional observations from a re-analysis of the deposited data

How the results depend on the processing

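With 1 library per group no replicate could be left out. No paired analysis was possible because each group has 1 library. The 844 genes higher and 662 lower in the model became 248 and 272 at a mitochondrial limit of 10%, 1525 and 1026 without the 8% of enterocytes with the most UMIs, 391 and 431 in cells with no UMI of 5 distal genes, 504 and 342 in cells thinned to 1000 UMIs, 249 and 252 at a fold of 2, and 496 and 437 in cells of 3000 to 15000 UMIs and 8 to 18% mitochondrial UMIs, chosen after seeing the data. With at least 100 UMIs per gene 437 were lower. Leaving mitochondrially encoded genes out of the CPM gave 683 higher and 811 lower, which turned the side that held more genes. The lower over upper tertile counts of 1852 higher and 684 lower became 634 and 326 thinned, 156 and 187 at the 10% limit, and 1060 and 1200 with ratios divided by the median (added after seeing the data). Thinning before ranking gave 624 higher. The ratio of ratios counts of 133 higher and 1328 lower became 377 and 543 at the 10% limit, 353 and 626 divided by the median, and 385 lower with 1 ranking over both libraries (the last 2 added after seeing the data).

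List medians changed sign in 2 cases: respiration to -0.066 at the 10% limit and cholesterol synthesis to 0.019 without the deepest 8%. At the 10% limit Clca4a turned to 0.083, Guca2a to 0.55 and Tfrc to -0.23 (log2). Olfm4 turned to -1.002 thinned before ranking, -1.02 without the deepest 8%, -0.32 in the window of depth and -0.0096 with equal weight per cell. Rsad2 turned to 0.19 thinned before ranking and 0.094 with 1 ranking. Trp53inp1 turned to 1.39 in the window, and Cyp51 to 0.24 with equal weight. Thinned cells gave -0.33 for Asns, -0.92 for Cyp2c29, 0.67 for Cyp51 and Ier3, -0.013 for Ssna1 and 0.25 for Trib3. The cause was not tested. Of the 24 genes named between libraries only Ssna1 reversed, but many moved past their counting interval. That held for 19 at the 10% limit, 15 without the deepest 8%, 14 in the window and 13 in thinned cells. At their smallest, Sprr2a3 came to -0.013, Papss2 to 0.32, Pycard to 0.34 and Ms4a18 to 0.45 (log2), less than 1.5-fold apart. Over all alternatives 425 list medians kept their value within the set margin, 40 moved and 2 reversed, and for named genes 1389, 593 and 17. Cells without the 5 distal genes gave no value for 3 named genes. Depth limits low genes: in 338 thinned model cells, 0 cells with a Plb1 UMI allow a share of up to 0.888% of cells with a UMI at that depth, which does not limit the share of cells that express it.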
